A study of Mus musculus with 10 samples.

Results

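Interferon-induced antiviral effector genes are the genes whose products act directly on viruses and other intracellular microbes, or tag and regulate the proteins that do, once a cell has received an interferon signal. A list of 37 such genes was followed through the series, and each gene was read by the probe set annotated to it alone that had the highest mean over the 10 arrays. By that rule 35 of the 37 genes were measured, out of 19938 genes in all. Isg15, the ubiquitin-like modifier, lay only on a probe set that it shares with a predicted gene and was therefore not given a value, and Ifi44 had no named probe set and was not analysed here. The list names genes by function, but it was chosen with earlier results of these data known. It is therefore not independent of the values reported here. Each of the 35 measured genes had only 1 probe set annotated to it alone, so the mean did not choose between probe sets within the list.

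The cells were immortalized murine macrophages of 2 lines, one labelled TLR9KO and one labelled wild-type. In the source names and titles, B6 is given only for the bead-stimulated wild-type arrays. TLR9 senses microbial DNA with unmethylated CpG motifs inside endosomes. RNA came from TLR9KO cells left unstimulated (2 arrays), wild-type cells left unstimulated (3 arrays), TLR9KO cells given β-1,3 glucan beads (2 arrays) and wild-type cells given the same beads (3 arrays). Beads made of this fungal cell wall sugar engage the receptor Dectin-1, and they were given at 20 per cell for 4 h. Each genotype was 1 immortalized line, so an effect of the Tlr9 deletion and any other difference between the lines cannot be told apart. Values are log2 signals, in which 1 unit is a 2-fold difference, and array numbers within a group only name the arrays. Nothing in the labels says whether arrays of 1 group stem from different cultures. The p-values therefore reflect the spread between arrays, which may be technical, and so few arrays limit the precision.

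Type I interferon binds the receptor of Ifnar1 and Ifnar2, the kinases Jak1 and Tyk2 then phosphorylate STAT proteins, among them Stat2, which works together with Irf9 in the factor ISGF3. That factor binds interferon-stimulated response elements (ISREs), repeats of the tetramer GAAA set apart by a pair of bases, in the promoters of the effector genes. Macrophages keep a low level of this programme at rest and raise it after Toll-like receptors or cytosolic sensors detect nucleic acid.

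The promoters below are shown because the genes beside them differed together between the lines or stood out by not doing so. They were chosen after the values were seen. Each is RefSeq's window of 300 bases in build GRCm38.p6, from 250 bases before to 50 after the annotated start, printed 5′ to 3′ on the gene's strand with every ISRE core in capitals, as its reverse complement where it lies on the opposite strand. Ifit1 lies at chr19:34640639-34640938 (plus strand) and Ifit3 at chr19:34583279-34583578 (plus strand). Rsad2 lies at chr12:26456403-26456702 (minus strand) and Cmpk2 at chr12:26468965-26469264 (plus strand), next to each other with 0 protein-coding genes between them. Bst2 lies at chr8:71537423-71537722 (minus strand) and Herc6 at chr6:57580742-57581041 (plus strand).
Ifit1: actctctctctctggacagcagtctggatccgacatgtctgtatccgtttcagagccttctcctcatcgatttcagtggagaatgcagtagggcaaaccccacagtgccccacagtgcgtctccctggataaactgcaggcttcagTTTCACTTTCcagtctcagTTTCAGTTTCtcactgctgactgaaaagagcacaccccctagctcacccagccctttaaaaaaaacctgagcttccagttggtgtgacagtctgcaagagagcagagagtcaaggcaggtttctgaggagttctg
Ifit3: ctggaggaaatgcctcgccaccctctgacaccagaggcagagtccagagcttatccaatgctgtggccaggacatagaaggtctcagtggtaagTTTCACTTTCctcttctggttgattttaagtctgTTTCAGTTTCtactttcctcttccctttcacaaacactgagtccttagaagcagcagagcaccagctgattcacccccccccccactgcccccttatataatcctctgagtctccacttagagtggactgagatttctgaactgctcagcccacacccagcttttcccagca
Rsad2: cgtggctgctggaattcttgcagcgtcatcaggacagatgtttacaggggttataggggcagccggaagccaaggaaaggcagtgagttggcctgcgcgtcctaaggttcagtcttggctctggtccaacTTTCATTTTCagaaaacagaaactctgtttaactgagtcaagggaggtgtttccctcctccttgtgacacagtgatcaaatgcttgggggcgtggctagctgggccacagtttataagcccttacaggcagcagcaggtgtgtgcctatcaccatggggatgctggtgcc
Cmpk2: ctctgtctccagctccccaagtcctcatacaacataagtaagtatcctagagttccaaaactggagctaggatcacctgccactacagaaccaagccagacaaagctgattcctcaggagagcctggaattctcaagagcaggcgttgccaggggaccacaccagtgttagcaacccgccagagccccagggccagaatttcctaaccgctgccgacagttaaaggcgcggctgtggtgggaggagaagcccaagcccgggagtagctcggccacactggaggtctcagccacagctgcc
Bst2: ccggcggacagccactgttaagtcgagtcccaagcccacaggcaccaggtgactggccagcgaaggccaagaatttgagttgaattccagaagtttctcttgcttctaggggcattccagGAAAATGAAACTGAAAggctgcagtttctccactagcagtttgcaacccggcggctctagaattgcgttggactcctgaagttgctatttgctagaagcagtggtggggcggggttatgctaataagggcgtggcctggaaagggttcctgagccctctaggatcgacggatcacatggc
Herc6: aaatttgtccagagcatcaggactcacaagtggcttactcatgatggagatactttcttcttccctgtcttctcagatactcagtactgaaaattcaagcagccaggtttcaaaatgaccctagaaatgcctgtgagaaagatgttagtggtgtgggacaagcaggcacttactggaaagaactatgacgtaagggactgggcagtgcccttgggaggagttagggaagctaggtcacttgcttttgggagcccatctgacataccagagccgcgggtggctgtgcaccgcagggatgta

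Searching both strands for the core GAAANNGAAA found it in the windows of 9 of the 27 members with a promoter entry (33.3%), against 1079 of 27025 genes in the whole table (3.99%). The genes were Isg15, Ifit1, Ifit3, Rsad2, Bst2, Ddx60, Trim21, Trim30a and Shisa5, of which Shisa5 held it in 1 of its 5 windows. In Ifit1 the cores began 104 and 85 bases before the annotated start, and in Rsad2 the core began 120 bases before it. The form with 3 tetramers, which contains overlapping cores, was found in 3 members (Isg15, Bst2 and Trim21; 11.1%) and in 0.133% of all genes. The gamma-activated site TTCNNNGAA was found in 6 of the 27 members (22.2%) and in 9.55% of all genes. Some genes had several windows: by window, the core was found in 10 of 39 member windows and in 3.44% of all windows. The 27 members include Isg15 and Ifi44, which had no value here. The 10 members without an entry were Rtp4, Ifi27l2a, Usp18, Trim14, Parp14, Parp9, Parp10, Tor3a, Mx1 and Mx2, and they were not searched. These are matches of letters in short windows, and an element with other letters or outside the window was not looked for.

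Tlr9 itself did not read lower in the line labelled TLR9KO. Its log2 signal was 7.44 and 7.62 in unstimulated TLR9KO cells, against 7.32, 6.91 and 7.25 in wild-type cells (0.37 ± 0.15, limma adjusted p = 0.244). Bead-stimulated TLR9KO cells read 7.35 and 7.31 and bead-stimulated wild-type cells 7.03, 7.21 and 7.44 (0.10 ± 0.15, adjusted p = 0.9995). Which part of the gene was deleted, and whether the probes lie in it, is not given in the labels, so this signal does not check them, and TLR9KO names below the line that carries that label.

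Wild-type bead array 3 stood apart: its mean Pearson correlation with its group mates across genes was 0.973, against 0.985 to 0.997 for the other 9 arrays, and its spread over genes was the narrowest of the 10 (SD 1.75). Counts and medians of the group comparisons below are also given without it, and named effector genes where their call changed. The counts over both treatments, the marker sums, the signal ranges and the regulator calls are given only with it. Macrophage markers were present in both lines, at different levels: the 8 markers measured summed to linear signals of 21264 to 24545 on the TLR9KO arrays and 16732 to 21642 on the wild-type arrays. Between the unstimulated lines Mertk was lower in TLR9KO cells (-1.50 ± 0.21, limma adjusted p = 0.00179), and Fcgr1 (1.14 ± 0.15), Adgre1 (0.89 ± 0.16) and Csf1r (0.71 ± 0.12) were higher. With beads the same 4 markers passed in the same directions, at -1.94 for Mertk, 0.88 for Fcgr1, 0.85 for Adgre1 and 0.61 for Csf1r. The 5 dendritic cell markers summed to 189 to 222 on the TLR9KO arrays and to 182 to 267 on the wild-type arrays, and the 4 lymphocyte markers measured summed to 122 to 140 on the TLR9KO arrays and 106 to 162 on the wild-type arrays. The 5 granulocyte markers summed to 179 to 196 on the TLR9KO arrays and 158 to 231 on the wild-type arrays, and the 5 fibroblast markers to 273 to 344 on the TLR9KO arrays and 249 to 416 on the wild-type arrays. Their part in the results was not tested. Fewer transcripts per cell and fewer transcribing cells cannot be told apart in such bulk samples.

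Without beads, 32 of the 35 effector genes were higher in the TLR9KO line and 0 were lower. Over all genes tested 3.79% were called higher and 4.46% lower in this comparison (limma, adjusted p under 0.05). The median difference of the 35 was 1.49 on the log2 scale, against 0.02 over all genes, and 27 of the 32 differed at least 2-fold, where 1.54% of all genes were called and at least 2-fold higher. Every one of the 35 read higher on both TLR9KO arrays than on all 3 wild-type arrays, where 17.7% of all genes did. Nmi, Herc6 and Mx1 did not pass the test. Without wild-type bead array 3, which enters this comparison only through the shared estimate of the spread, all 35 passed, while 7.08% of all genes were called higher and 11.3% lower.

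**Figure D1:**
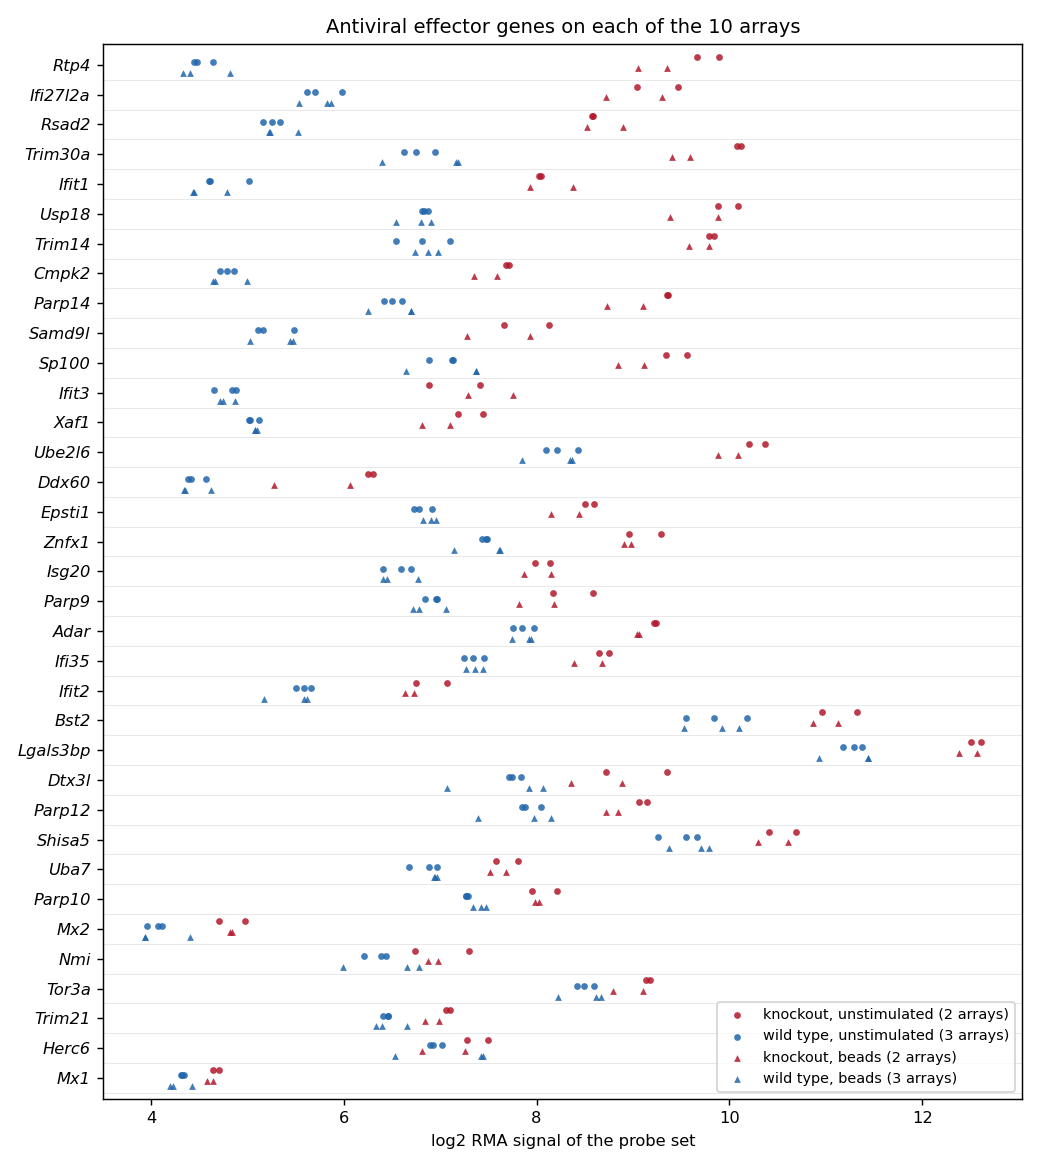
Log2 signal (horizontal axis) of the 35 measured genes (rows, ordered by the difference between the unstimulated lines) on each array, with TLR9KO arrays in red and wild-type arrays in blue, circles for unstimulated cells and triangles for beads. In 33 of the 35 rows every red symbol lies to the right of every blue one; the exceptions are Herc6 and Nmi.

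Over both treatments, all 4 TLR9KO arrays exceeded all 6 wild-type arrays in 33 of the 35 genes, where 7.32% of all genes did. The gap between the lowest TLR9KO and the highest wild-type array was at least 1 log2 unit in 18 genes, and in 0.752% of all genes. It was widest for Rtp4, at 4.23. For Herc6 the arrays overlapped by 0.63 and for Nmi by 0.04, so that their gaps were -0.63 and -0.04. The median signal of the 35 genes lay between 8.36 and 8.68 on the TLR9KO arrays, at a median percentile of 82.7 to 84.8 among the probe sets of the array, against 6.64 to 6.88 and a percentile of 59.7 to 63.8 on the wild-type arrays.

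Of the IFIT proteins, Ifit1 binds viral RNA with foreign or incomplete caps and blocks its translation. All 3 IFIT genes measured were higher in unstimulated TLR9KO cells. Ifit1 read 8.03 and 8.05 in TLR9KO cells, against 5.02, 4.60 and 4.61 in wild-type cells, a difference of 3.30 ± 0.18 (SE; 9.82-fold; adjusted p = 7.33e-06). The TLR9KO arrays were nearly identical and far above the wild-type ones. Ifit3 read 7.41 and 6.88 in TLR9KO cells and 4.84, 4.65 and 4.88 in wild-type cells (2.36 ± 0.18, adjusted p = 5.03e-05). Over all wild-type arrays Ifit1 stood at the 20.6 to 32.1 percentile and Ifit3 at the 25.1 to 29.5 percentile, near the limit for reading a fold. Ifit2 differed least of the family, with 6.75 and 7.08 in TLR9KO cells and 5.50, 5.66 and 5.59 in wild-type cells (1.33 ± 0.15, adjusted p = 6.45e-04). Ifit2 and Ifit3 are neighbours on chromosome 19, and 3 protein-coding genes lie between Ifit3 and Ifit1. Close relatives of these genes in the mouse genome could share hybridisation with their probes.

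Isg15 is attached to target proteins by an enzyme cascade and removed by a protease. Of the 4 measured genes of this system, 3 were higher. Usp18, the protease that removes Isg15 and also restrains signalling at the interferon receptor, read 10.09 and 9.88 in TLR9KO cells and 6.83, 6.81 and 6.87 in wild-type cells. That is 3.15 ± 0.16 (8.85-fold, adjusted p = 4.78e-06), with the groups far apart. Ube2l6, the conjugating enzyme, read 10.37 and 10.21 in TLR9KO cells, against 8.09, 8.43 and 8.22 in wild-type cells (2.04 ± 0.17, adjusted p = 1.01e-04). Uba7, the activating enzyme, differed by 0.85 ± 0.12 (adjusted p = 0.00191). Herc6, which serves as the Isg15 ligase in mice, read 7.49 and 7.28 in TLR9KO cells and 6.92, 6.90 and 7.02 in wild-type cells. Its arrays did not overlap, but the difference of 0.44 ± 0.26 did not pass (adjusted p = 0.5001) and reached an adjusted p of 0.0317 without wild-type bead array 3.

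Enzymes that act on RNA or nucleotides were higher in 6 of 6. Rsad2 encodes viperin, which makes a nucleotide that terminates viral RNA chains, and Cmpk2 is the kinase beside it that can supply its substrate. Rsad2 read 8.58 and 8.59 in TLR9KO cells and 5.34, 5.16 and 5.25 in wild-type cells (3.33 ± 0.14, 10.1-fold, adjusted p = 1.75e-06). Cmpk2 read 7.68 and 7.71 in TLR9KO cells, against 4.71, 4.79 and 4.86 in wild-type cells (2.91 ± 0.13, 7.52-fold, adjusted p = 2.13e-06). For both neighbours the arrays of a line lay close together, and the lines did not overlap. Cmpk2 stood at the 25.3 to 29.9 percentile over all wild-type arrays, near the limit for reading a fold. The helicase Ddx60 differed by 1.82 ± 0.20, the RNA-binding helicase Znfx1 by 1.66 ± 0.16, the exonuclease Isg20 by 1.49 ± 0.15 and the RNA-editing enzyme Adar by 1.37 ± 0.10. The wild-type signal of Ddx60 lay below the 25th percentile of all 3 unstimulated arrays, so its difference is not a measured fold.

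Mx1 and Mx2 encode dynamin-like GTPases that trap viral nucleocapsids, and RefSeq's annotation of the C57BL/6J genome lists both as transcribed pseudogenes. Both had low signals. Mx2 read 4.71 and 4.97 in TLR9KO cells and 4.11, 3.96 and 4.07 in wild-type cells (0.79 ± 0.15, adjusted p = 0.0121). Mx1 read 4.64 and 4.71 in TLR9KO cells, against 4.32, 4.31 and 4.34 in wild-type cells. Its groups did not overlap, yet the difference of 0.35 ± 0.10 missed the threshold (adjusted p = 0.0594), and every array held it below the 25th percentile. Mx1 passed without wild-type bead array 3 (adjusted p = 0.00626), while Mx2 lost its call without unstimulated TLR9KO array 2 (0.140).

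The PARP group was higher in 5 of 5. Parp14, which adds single ADP-ribose units to proteins, read 9.35 and 9.36 in TLR9KO cells and 6.50, 6.61 and 6.42 in wild-type cells (2.85 ± 0.16, 7.19-fold, adjusted p = 8.90e-06). Parp9 and Dtx3l, which form a ubiquitin ligase together, are neighbours with Parp14 on chromosome 16. Parp9 read 8.59 and 8.17 in TLR9KO cells and 6.96, 6.85 and 6.95 in wild-type cells (1.45 ± 0.16), and Dtx3l differed by 1.27 ± 0.30 (adjusted p = 0.0300). The TLR9KO arrays of Dtx3l lay apart, at 9.35 and 8.72, and its call was lost without any 1 of the 5 unstimulated arrays (adjusted p between 0.0586 and 0.277). The mono-ADP-ribosyltransferases Parp12 and Parp10 differed by 1.18 ± 0.19 and 0.81 ± 0.10. Parp12 lost its call without unstimulated TLR9KO array 1 (adjusted p = 0.0598).

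All 3 genes of the TRIM family, many of whose members are ubiquitin ligases, were higher. Trim30a, which dampens Toll-like receptor signalling in mice, read 10.08 and 10.12 in TLR9KO cells and 6.75, 6.95 and 6.62 in wild-type cells (3.33 ± 0.22, 10.0-fold, adjusted p = 2.37e-05). Trim30a belongs to a cluster of similar genes whose transcripts could add to its signal. Trim14, an adaptor in sensing of cytosolic nucleic acid, read 9.84 and 9.79 in TLR9KO cells, against 7.10, 6.54 and 6.81 in wild-type cells (3.00 ± 0.16, adjusted p = 5.50e-06). Trim21, the cytosolic antibody receptor, differed by 0.64 ± 0.11, a call that was lost without either unstimulated TLR9KO array (adjusted p = 0.0740 and 0.0585). Trim30a and Trim14 thus differed far more than Trim21.

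Membrane, secretory and secreted proteins were higher in 5 of 5, and one of them had the widest difference of the 35 genes. Rtp4, a Golgi-associated chaperone with antiviral activity, read 9.90 and 9.66 in TLR9KO cells and 4.64, 4.45 and 4.48 in wild-type cells (5.25 ± 0.17, adjusted p = 2.72e-07). Over both treatments it stood at the 89.0 to 93.6 percentile of the TLR9KO arrays, while each of the 6 wild-type arrays held it below its 25th percentile, too low for the difference to be read as a fold. Bst2, the tetherin that holds budding virus at the cell surface, read 11.32 and 10.96 in TLR9KO cells and 10.18, 9.55 and 9.84 in wild-type cells (1.29 ± 0.22, adjusted p = 0.00675). The secreted glycoprotein Lgals3bp differed by 1.27 ± 0.16, the endoplasmic reticulum protein Shisa5 by 1.06 ± 0.17 and the torsin ATPase Tor3a by 0.65 ± 0.15. Bst2 and Shisa5 lost their calls without unstimulated TLR9KO array 1 (adjusted p = 0.0892 and 0.0715), and Tor3a without any 1 of the 5 unstimulated arrays (adjusted p between 0.0639 and 0.187).

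Of the 7 other inducible proteins measured, 6 were higher. Ifi27l2a, a small membrane protein, read 9.47 and 9.04 in TLR9KO cells and 5.98, 5.70 and 5.62 in wild-type cells (3.49 ± 0.21, 11.3-fold, adjusted p = 9.65e-06). Samd9l, which restricts poxviruses, read 8.13 and 7.66 in TLR9KO cells, against 5.49, 5.11 and 5.17 in wild-type cells (2.64 ± 0.23). Neither gene's groups came near each other. Sp100, a component of PML nuclear bodies, differed by 2.41 ± 0.22, Xaf1, which opposes the caspase inhibitor XIAP, by 2.26 ± 0.12, Epsti1 by 1.74 ± 0.11 and Ifi35 by 1.35 ± 0.12. Nmi, the binding partner of Ifi35, read 7.30 and 6.74 in TLR9KO cells and 6.39, 6.44 and 6.21 in wild-type cells, and its difference of 0.67 ± 0.24 did not pass (adjusted p = 0.147; 0.00841 without wild-type bead array 3).

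With beads, 30 of the 35 genes were higher in the TLR9KO line and 0 were lower, where 3.82% of all genes were called higher and 3.40% lower. Their median difference was 1.23, against -0.01 over all genes. The TLR9KO bead arrays read above all 3 wild-type bead arrays in 34 genes, and in 11.3% of all genes. These 30 genes were all among the 32 called without beads. The comparisons of the lines with and without beads share no arrays, but the spread of each gene was estimated over all arrays for both. Without wild-type bead array 3, 32 genes were higher, while 7.19% of all genes were called higher and 13.7% lower. The median difference was then 1.32, against 0.05 over all genes, and 34 genes again did not overlap, where 36.7% of all genes read higher without overlap.

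**Figure D2:**
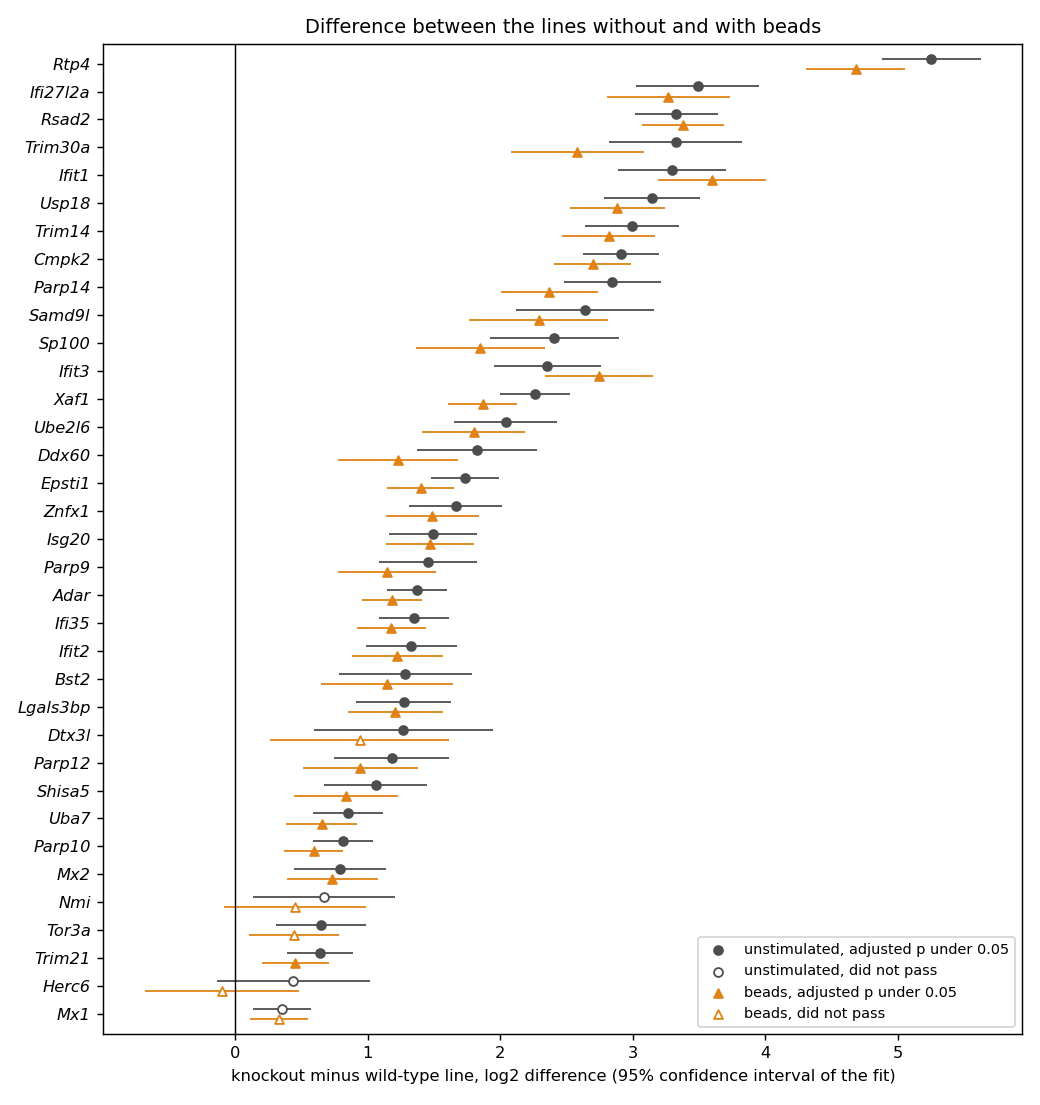
TLR9KO minus wild-type line, as a log2 difference with the 95% confidence interval of the fit (horizontal axis), for the 35 genes (rows) without beads (grey circles) and with beads (orange triangles); open symbols did not pass. Rtp4 leads in both, at 5.25 and 4.68, and Herc6 crosses 0 in both.

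Rtp4 read 9.05 and 9.36 in TLR9KO cells with beads, against 4.33, 4.40 and 4.82 in wild-type cells with beads (4.68 ± 0.17, adjusted p = 4.95e-07). Ifit1 came next, with 7.93 and 8.38 in TLR9KO cells and 4.44, 4.44 and 4.79 in wild-type cells (3.60 ± 0.18, adjusted p = 4.96e-06), the wild-type signal now below the 25th percentile of all 3 arrays. Rsad2 read 8.52 and 8.89 in TLR9KO cells and 5.22, 5.24 and 5.53 in wild-type cells (3.38 ± 0.14, adjusted p = 1.37e-06). In none of these 3 genes did the lines come within 2 log2 units of each other.

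Usp18 differed by 2.88 ± 0.16 with beads, Trim14 by 2.82 ± 0.16, Ifit3 by 2.75 ± 0.18, Cmpk2 by 2.70 ± 0.13 and Trim30a by 2.58 ± 0.22. Dtx3l, at 0.94 ± 0.30, and Tor3a, at 0.45 ± 0.15, were the genes called without beads that did not pass with them (adjusted p = 0.114 and 0.138). Mx1 (0.33 ± 0.10, adjusted p = 0.0857) and Nmi (0.45 ± 0.24, adjusted p = 0.449) did not pass either. Herc6 read 6.82 and 7.25 in TLR9KO cells, against 7.44, 7.43 and 6.54 in wild-type cells (-0.10 ± 0.26, adjusted p = 0.9995). It was the 1 member whose line difference was negative, and its lowest value of the 10 came from wild-type bead array 3.

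Calls with beads were lost by Trim21 without any of 9 arrays left out in turn (adjusted p between 0.0660 and 0.317), the exception being wild-type bead array 3. Mx2 lost its call without either TLR9KO bead array or wild-type bead array 1 or 2 (0.0605 to 0.137). Parp10, Parp12 and Bst2 lost theirs without either TLR9KO bead array (0.0531 and 0.0783, 0.0876 and 0.155, 0.0561 and 0.145), Uba7 without TLR9KO bead array 1 (0.108) and Shisa5 without TLR9KO bead array 2 (0.202). Without wild-type bead array 3, Mx1 (0.00494) and Dtx3l (0.0495) passed.

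The bead response itself was small in both lines, and 0 of the 35 genes passed limma in either (0.00% of all genes were called in each direction in each line). In the TLR9KO line the median change of the 35 was -0.20, against 0.0039 over all genes, and 32 of the 35 values were negative. Both TLR9KO bead arrays read below both unstimulated ones in 15 genes, where 11.2% of all genes did. The 3 positive values were those of Ifit1 (0.12 ± 0.20), Rsad2 (0.13 ± 0.15) and Ifit3 (0.38 ± 0.20). At an unadjusted p under 0.05 there were 5 genes, Rtp4 (-0.57 ± 0.18), Trim30a (-0.61 ± 0.24), Ddx60 (-0.60 ± 0.22), Parp14 (-0.44 ± 0.18) and Xaf1 (-0.36 ± 0.13), among 359 of all genes. Without wild-type bead array 3, which enters only through the spread, 13 members and 910 of all genes had such a p, and 0 members passed.

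**Figure D3:**
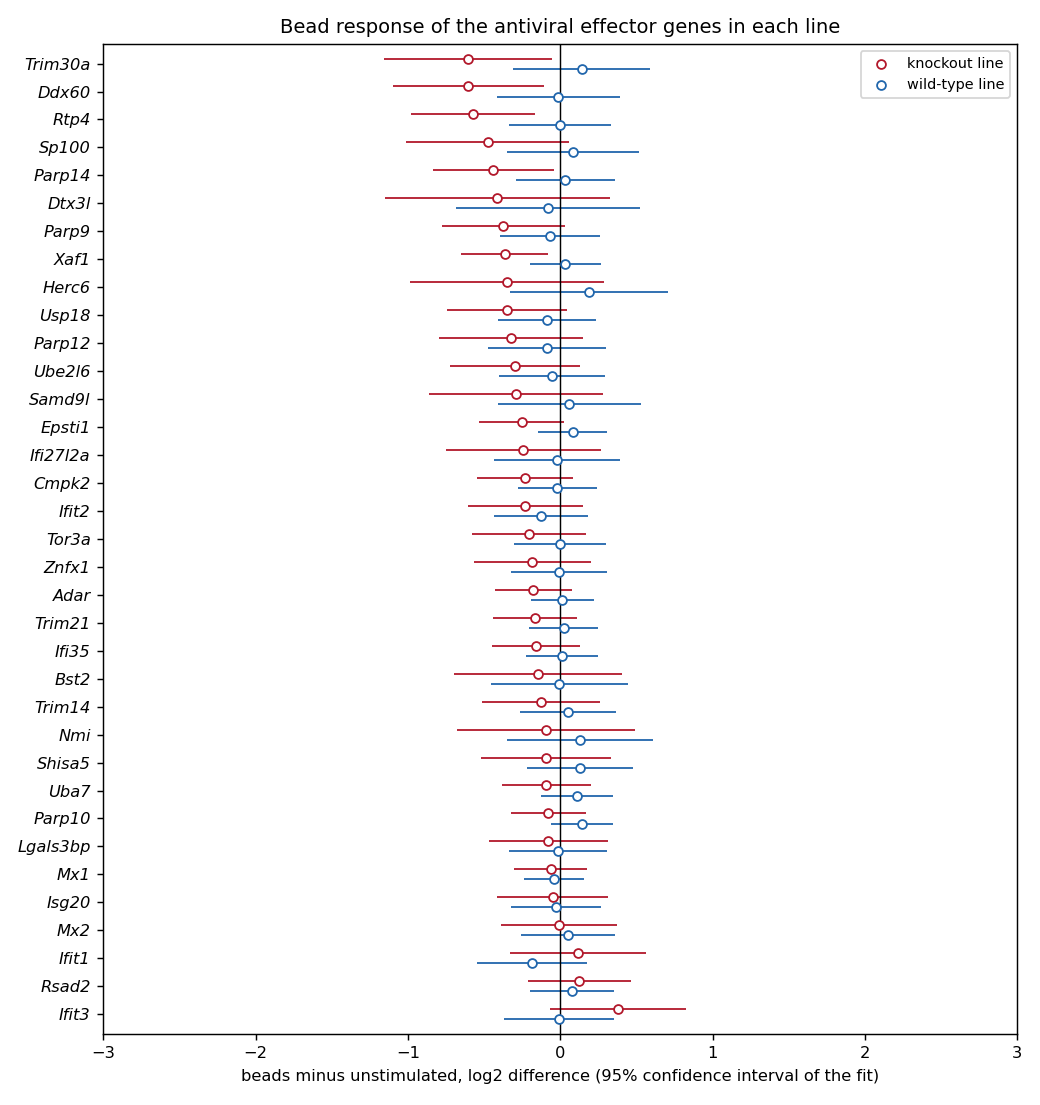
Bead-stimulated minus unstimulated cells, as a log2 difference with the 95% confidence interval of the fit (horizontal axis), for the 35 genes (rows) in the TLR9KO line (red) and the wild-type line (blue). No gene passed in either line; 32 red symbols and 18 blue symbols lie below 0.

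The values behind the lowest of these were as follows. Trim30a read 9.40 and 9.59 with beads and 10.08 and 10.12 without them in TLR9KO cells. Ddx60 read 5.28 and 6.07 with beads, against 6.25 and 6.31 without, so that 1 of its bead arrays lay far lower than the other. Rtp4 read 9.05 and 9.36 with beads and 9.90 and 9.66 without. Ifit3 went the other way, with 7.29 and 7.76 with beads and 7.41 and 6.88 without, and its arrays overlapped.

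The 2 TLR9KO bead arrays differed in how far they lay below the unstimulated mean. Array 1 was lower in 33 of the 35 genes, with a median of -0.30, and array 2 in 27, with a median of -0.11, while 42.7% and 55.1% of all genes were lower on those arrays. Array 1 also had the narrower spread over genes (SD 1.86, against 1.95 on array 2), and centring all arrays and bringing them to 1 spread, a setting chosen after seeing the data, gave a median change of -0.23 for the 35 genes. Without TLR9KO bead array 1 the median was -0.11, and without array 2 it was -0.30.

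**Figure D4:**
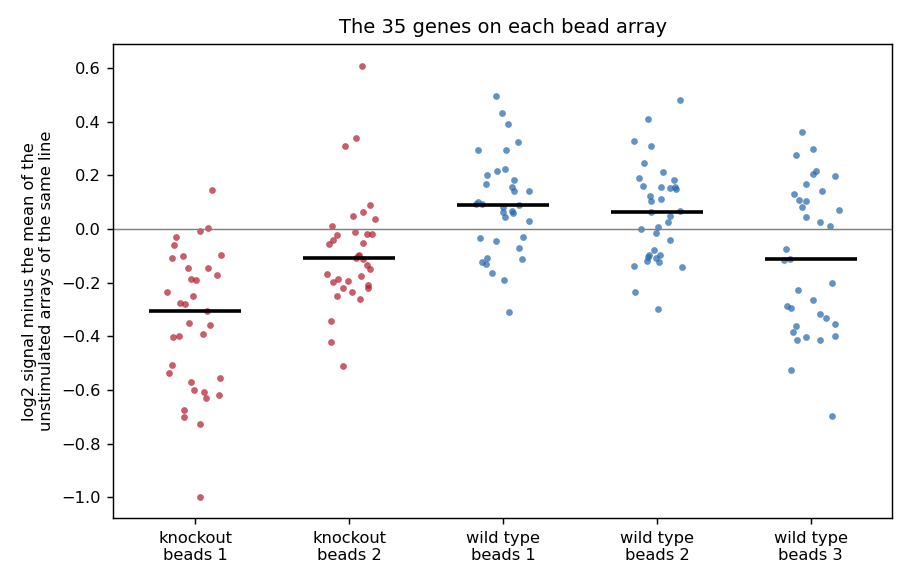
Log2 signal of the 35 genes (points) on each bead array minus the mean of the unstimulated arrays of the same line (vertical axis), with the median as a black bar. The medians were -0.30 and -0.11 on the TLR9KO arrays and 0.09, 0.06 and -0.11 on the wild-type arrays.

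In the wild-type line the median change of the 35 genes was -0.0021, against 0.01 over all genes, with 17 positive and 18 negative values and no gene at an unadjusted p under 0.05 (167 of all genes were). Parp10 alone read higher on all 3 bead arrays (7.47, 7.42 and 7.34) than on all 3 unstimulated arrays (7.27, 7.26 and 7.28), as 2.29% of all genes did (0.14 ± 0.09); with array 3 left out 11 members and 18.1% of all genes did. The 95% intervals of the wild-type response lay within 1 log2 unit of 0, that is, within a 2-fold change, for all 35 genes, and those of the TLR9KO response for 31, the exceptions being Ddx60, Dtx3l, Trim30a and Sp100. With wild-type bead array 3 left out the numbers were 35 for the wild-type response and 34 for the TLR9KO response. Wild-type bead arrays 1 and 2 lay above the unstimulated mean in 24 and 21 genes and below it in 11 and 14. Array 3 lay above it in 16 and below it in 19. Of all genes, 52.0%, 53.8% and 41.7% were lower on arrays 1, 2 and 3.

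Without wild-type bead array 3, the median of the wild-type response was 0.08, against -0.01 over all genes. Of the 35 values 24 were positive, 4 had an unadjusted p under 0.05 and 0 passed. They were Herc6 (0.49 ± 0.12, adjusted p = 0.315), Trim30a (0.40 ± 0.10, adjusted p = 0.316), Sp100 (0.33 ± 0.11, adjusted p = 0.384) and Nmi (0.37 ± 0.15, adjusted p = 0.407). In the same setting 11.5% of all genes had an unadjusted p under 0.05, a share close to 4 of 35. Herc6 read 7.44, 7.43 and 6.54 with beads and 6.92, 6.90 and 7.02 without, so its first 2 bead arrays were higher and the third was lower than every unstimulated array.

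The difference between the bead responses was tested directly and passed for 0 of the 35 genes (0.00% of all genes in each direction). Its median, TLR9KO minus wild type, was -0.22 over the 35 genes, against -0.0074 over all genes. The difference was negative for 32 of the 35 genes, and the share of all genes with a negative value was not counted. It lay at an unadjusted p under 0.05 for 3, Trim30a (-0.75 ± 0.32), Rtp4 (-0.57 ± 0.23) and Xaf1 (-0.40 ± 0.16), among 172 of all genes. The 95% interval reached from -1.46 to -0.04 for Trim30a, and for 28 genes it lay within 1 log2 unit of 0. When wild-type bead array 3 was left out the median was -0.305, against 0.017 over all genes, and 29 values were negative. In that setting 29 intervals lay within 1 log2 unit of 0. Then 11 members had an unadjusted p under 0.05, among 976 of all genes, with 0 members passing. The median was -0.093 without TLR9KO bead array 1 and -0.31 without TLR9KO bead array 2, the ends of its range with 1 array left out. A test that misses the threshold does not show that the lines responded alike.

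Among the regulators upstream of these genes, 6 of the 14 measured were higher in TLR9KO cells without beads and 6 with beads, and 0 were lower. They were Irf7, the factor that amplifies interferon production, Stat2 and Irf9 of ISGF3, Irf1, the receptor chain Ifnar1 and the kinase Tyk2. Irf7 read 11.51 and 11.34 in unstimulated TLR9KO cells and 6.36, 6.24 and 6.30 in wild-type cells (5.12 ± 0.13). Stat2 read 8.63 and 8.91 in TLR9KO cells and 6.64, 6.63 and 6.73 in wild-type cells (2.11 ± 0.12, adjusted p = 8.90e-06). Irf9 read 8.58 and 8.33 in TLR9KO cells, against 6.81, 6.76 and 6.89 in wild-type cells (1.63 ± 0.12, adjusted p = 3.62e-05).

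Interferon transcripts themselves did not pass. Ifnb1 read 4.82 and 4.89 in unstimulated TLR9KO cells and 5.04, 4.84 and 4.89 in wild-type cells (-0.07 ± 0.18, adjusted p = 0.998). With beads it read 4.89 and 4.65 in TLR9KO cells and 4.62, 4.77 and 5.27 in wild-type cells (-0.12 ± 0.18, adjusted p = 0.9995). Over all arrays it stood at the 25.4 to 28.6 percentile in the TLR9KO line, against 25.6 to 33.5 in the wild-type line, and the groups overlapped. Ifna2 and Ifna4 did not pass either, and Ifna1 was represented solely by probe sets that carry several interferon genes. Neither Jak1 nor Irf3 passed, nor did the feedback inhibitors Socs1 and Socs3. Whether any regulator accounts for the effector genes' levels was not tested.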

How the data were processed

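RNA of 10 samples was hybridised to Affymetrix arrays after biotin labelling of cDNA, per the labels' protocols. Per the submitters' processing notes, the deposited log2 signals come from the authors' RMA. That method corrects background, brings the probes of arrays to a common distribution and summarises them, which can narrow differences at low signal. The deposited arrays still differed, with medians over all probe sets from 5.75 to 6.10, the highest on wild-type bead array 3. The sources used here name neither the RMA version nor the set of arrays it was run on. The table held 28853 probe sets, of which 21789 carried 1 gene symbol, 1621 several and 5443 none. Symbols were updated by Entrez ID for 21698.

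Arrays were grouped by label. A model with 4 group means was fitted to 19938 genes (R 4.3.3, limma 3.58.1; lmFit, then eBayes; 6 residual and 3.23 prior degrees of freedom). Tests were two-sided with Benjamini-Hochberg adjustment over all genes and a threshold of 0.05, and SE is that of the fit. Detection calls were not used here, and a signal below the 25th percentile of every array of a group was taken as too low for a fold. All listed genes were eligible to be named. The fit was also run on simulated data with independent noise of equal spread on every array. That run cannot test the effect of technical replicates or of an array that stands apart. Members, lists and tests were chosen with earlier results of these data known. Promoter windows came from RefSeq (GRCm38.p6).

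Alternatives were eBayes with a trend, robust eBayes, median centring, quantile normalisation, a filter on low signal, array weights, a fit of the compared groups alone, the mean of a gene's probe sets, each array left out in turn, and, chosen after seeing the data, equal spread of the arrays.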

Additional observations from a re-analysis of the deposited data

How the results depend on the processing

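Of the 32 effector genes called without beads, 25 kept their call under every one of the 19 alternatives that tested them, and of the 30 called with beads 22 did so. The number called ran from 25 to 35 without beads (26 to 35 with 1 array left out) and from 22 to 33 with beads (24 to 32). The lowest of the first came from the low-signal filter, which removed 8 of the 35 genes from the test. Taking the mean of a gene's probe sets left the values of all 35 unchanged, because each had 1 probe set, so that setting says little about them. The median difference ran from 1.44 to 1.58 without beads and from 1.18 to 1.45 with beads. In the TLR9KO bead response 0 genes were called under any alternative and the median ran from -0.30 to -0.11. In the wild-type bead response array weights called 3 of the 35, Herc6, Trim30a and Nmi, all higher, and the cause was not tested. The same setting called 1471 of all 19938 genes in that response, 693 of them lower, so calls were not particular to the members. The difference Herc6 showed between the lines with beads ran from -0.40 to 0.12 with 1 array left out, turning positive (0.12 without TLR9KO bead array 1, 0.054 and 0.046 without wild-type bead array 1 and 2). That of Ifnb1 ran from -0.25 to 0.076, the positive value without wild-type bead array 3, and was 0.053 with array weights. None of the positive values passed.

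Over all genes, the 1645 calls without beads became 756 after median centring, 2483 after quantile normalisation, 4160 with array weights, 3262 with the compared groups alone and 681 to 3668 with 1 array left out. The 1439 calls with beads became 704, 2263, 4533 and 480 under the same settings and 597 to 4171 with 1 array left out. Array weights called 1471 genes in the wild-type bead response and 11 in that of the TLR9KO line. Leaving out 1 array gave 0 to 17 calls in the TLR9KO response, 0 in the wild-type response and 0 to 1 in the difference between them. A group left with 1 array was assumed to vary like the others. No paired analysis was possible because no replicate number in the labels links arrays of different groups. Members with signals near the bottom of the arrays, such as Mx1, are limited by signal over background.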
